A study of Caenorhabditis elegans and Caenorhabditis briggsae and Caenorhabditis remanei with 48 samples.

Results

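The small heat-shock protein genes hsp-12.3, hsp-12.6, hsp-17 and hsp-43 were followed across the exit from L1 diapause in 4 nematode species. They were taken as the C. elegans coding sequences CE03293 (hsp-12.3), CE03294 (hsp-12.6), CE04635 (hsp-17) and CE03986 (hsp-43), together with the rows that the study paired with them in the other species. This gave 4 rows in each species, 16 in all, out of 23502 coding sequences in C. elegans, 28903 in C. brenneri, 21006 in C. briggsae and 30845 in C. remanei. All 16 rows were found in both the mRNA and the ribosome footprint tables. The C. briggsae rows were CBP20211, CBP05137, CBP02751 and CBP01288, in the order hsp-12.3, hsp-12.6, hsp-17 and hsp-43. In the same order they were RP03392, RP04070, RP17857 and RP41268 in C. remanei, and CN09020, CN25039, CN12438 and CN01178 in C. brenneri. The genes belong to a list that the study chose on these libraries, so their direction of change is not independent evidence.

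The series held 48 libraries, 3 biological replicates for each of 4 species, 2 states and 2 assays. Developing animals had been starved for 24 h after hatching and then given HB101 bacteria (E. coli, 15 mg/mL) for the next 3 h, and diapause animals were frozen after the same 24 h without food. Both states were grown in S-complete liquid medium at 20 C from wild-type strains, N2 for C. elegans, AF16 for C. briggsae, PB4641 for C. remanei and PB2801 for C. brenneri, and whole animals of each batch were split between the states. Feeding and the 3 h that passed with it cannot be told apart, and in whole animals more RNA per cell cannot be told apart from more cells that express a gene. Poly(A) RNA was sequenced to measure mRNA abundance, and ribosome-protected fragments (RPFs), the short stretches of mRNA that a ribosome shields from nuclease, were sequenced to measure translation. The study points out that translation as a whole drops substantially in diapause and that its measurements are relative. Higher or lower values below are thus relative to other coding sequences, and absolute amounts of mRNA or translation were not measured.

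Small heat-shock proteins are a family best known for chaperones that work without ATP. They share a central alpha-crystallin domain. Many of them assemble into oligomers and hold unfolding proteins until ATP-driven chaperones such as HSP70 refold them. This does not hold for every member, and neither property was measured here. The C. elegans family includes strongly heat-inducible members such as hsp-16.48 as well as members whose expression follows development. HSP-12.3 and HSP-12.6 belong to an unusually short class with very little sequence outside the alpha-crystallin domain, and hsp-12.6 is a known target of DAF-16, the FOXO transcription factor of the insulin pathway. HSP-43 is among the largest members of the family and in adult C. elegans has been found in the vulva and the spermatheca. In the RefSeq gene table of C. elegans, hsp-12.3 and hsp-12.6 are next to each other on chromosome IV, hsp-17 is on chromosome V and hsp-43 on chromosome X. RefSeq lists 1 protein each for hsp-12.3 and hsp-12.6 and 2 each for hsp-17 and hsp-43. The authors removed reads that mapped to several places in the genome, so that a stretch shared by related genes adds to neither.

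The deposited values are the mean of 3 libraries for each state, in reads divided by a size factor for each library, called normalized reads here. The means carry enough digits that the whole reads behind them could be recovered for single libraries, as given with the processing, and values of single libraries below come from this recovery. Libraries are numbered by falling size factor, separately in each species, state and assay, because the recovered libraries carry no batch number. The recovered reads summed to between 3485329 and 19688040 per mRNA library (median 7786370) and between 1749805 and 12208832 per RPF library (median 6821247.5). The lowest correlation between 2 replicates of a group, across coding sequences on a log2 scale, was 0.92. Changes are log2 ratios of the developing mean over the diapause mean, without a pseudocount. Their errors and adjusted p-values are from limma on log2(normalized reads + 1), fitted over the whole table of a species and assay with Benjamini-Hochberg adjustment over all coding sequences tested, and a change was called at an adjusted p under 0.05.

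The genes split into 3 patterns, whose directions recurred in every species. hsp-12.3 and hsp-12.6 were much lower in developing animals, hsp-43 was moderately lower, and hsp-17 was higher. The sizes were least distinct in C. brenneri mRNA, at -1.36 for hsp-12.3, -1.48 for hsp-12.6 and -0.56 for hsp-43. Differences between genes were not tested. At the mRNA level 11 of the 16 values were called lower and 4 higher, and at the RPF level 12 were called lower and 4 higher. The exception was hsp-12.6 mRNA in C. brenneri, with a log2 change of -1.48 and a limma adjusted p of 0.0575. Over all coding sequences tested for mRNA, limma called 13.8% lower in C. brenneri, 14.1% in C. remanei, 26.6% in C. briggsae and 26% in C. elegans, and it called 19.6%, 21.4%, 28.1% and 27% higher in the same order of species. For RPF it called 25.5%, 28%, 28.6% and 29.1% lower and 30.2%, 30.9%, 32.5% and 29.8% higher, again in that order. A call was therefore common in these tables, and the size of the changes separates the genes more than the calls do. How often the libraries of both states lie apart over all coding sequences was not counted. Statements on libraries that do not overlap therefore only describe the genes.

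**Figure D1:**
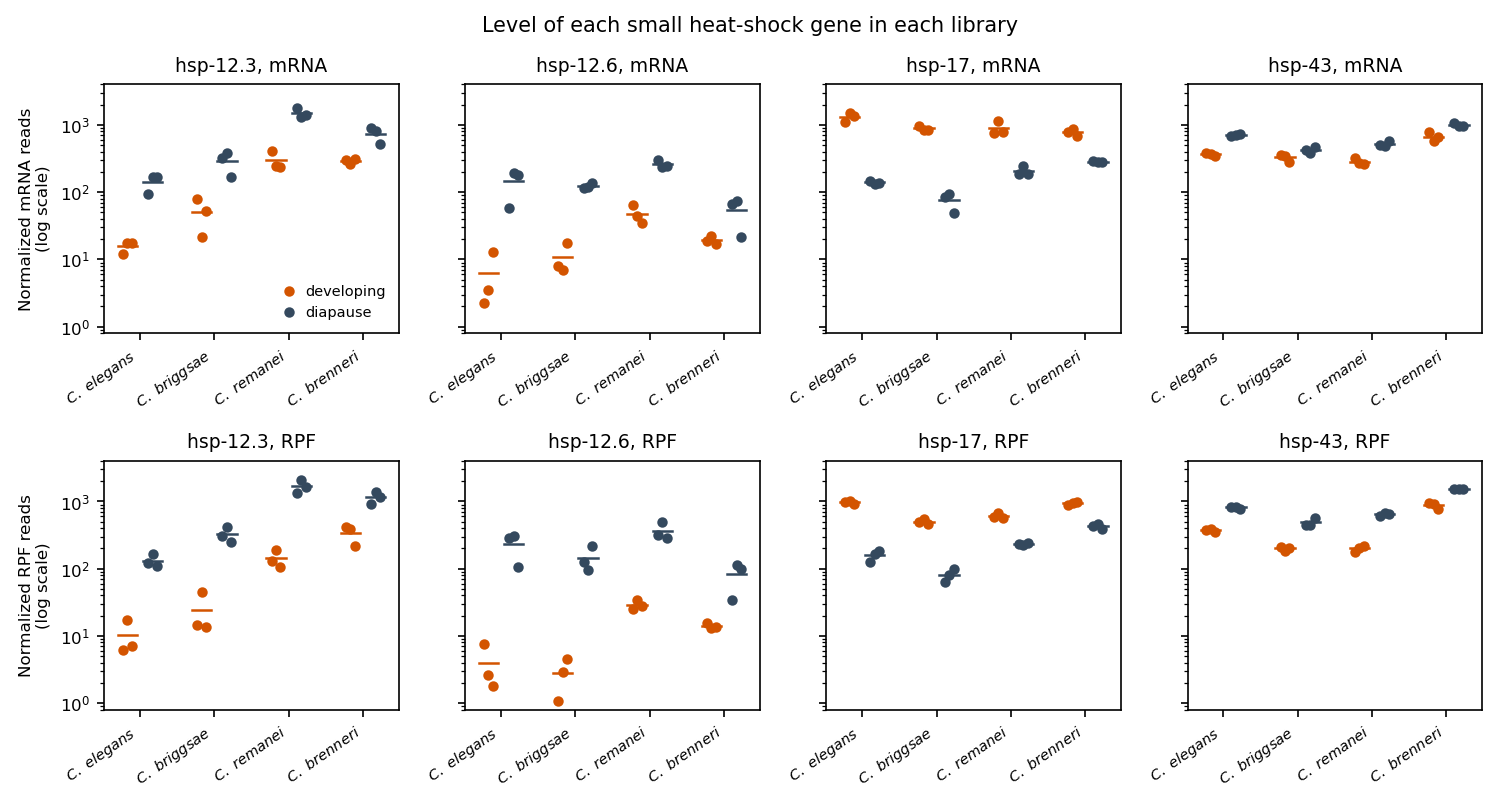
Normalized reads of each gene in each library (points, log axis), with the mean of 3 libraries as a bar, for developing (orange) and diapause (dark blue) animals of 4 species; mRNA is in the top row and RPF in the bottom row. hsp-12.3, hsp-12.6 and hsp-43 are lower and hsp-17 is higher in developing animals, and the libraries of both states overlap only for hsp-12.6 mRNA in C. brenneri. The share of all coding sequences without such overlap was not counted.

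hsp-12.6 was much lower in developing animals of C. elegans and C. briggsae, and had the largest footprint change of the 4 genes in both. In C. elegans mRNA it had 2.26, 3.57 and 13.1 normalized reads in the developing libraries, against 57.4, 194 and 182 in the diapause libraries, a 23.0-fold lower mean (log2 change -4.52, adjusted p = 0.000193 by limma). In C. elegans RPF it had 7.54, 2.65 and 1.79 in developing animals, against 282, 305 and 107 in diapause animals, 58.0-fold lower (-5.86, limma adjusted p = 2.78e-06). Every developing library lay below every diapause library in both assays, and the smallest gap between single libraries was 4.39-fold for mRNA and 14.1-fold for RPF. The developing means rest on 11 mRNA reads (95% exact Poisson interval 5.49 to 19.7) and 15 RPF reads (8.40 to 24.7) over 3 libraries, intervals that cover counting error only. Among 14076 coding sequences with a mean of at least 50 normalized reads, 0.185% fell more than hsp-12.6 mRNA, and among 12161 for RPF, 0.173% fell more. The gene reached that mean through its diapause libraries alone, so its place there is not independent of its fall. Without developing library 3 the mRNA change was -5.63, and without developing library 1 the RPF change was -6.70, so that 1 library moved each fold by more than 1.5 times.

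The orthologs of hsp-12.6 gave the same direction. In C. briggsae mRNA it had 7.90, 7.07 and 17.4 normalized reads in developing animals, against 117, 119 and 137 in diapause animals (-3.53, limma adjusted p = 1.22e-05). In C. briggsae RPF it had 1.06, 2.86 and 4.61 in developing animals, against 125, 94.1 and 217 in diapause animals, 51.1-fold lower (-5.67, limma adjusted p = 2.27e-05). That developing mean rests on 7 reads (exact Poisson interval 2.81 to 14.4), so its fold is imprecise, while the groups are far apart. In C. remanei mRNA it had 65.0, 44.8 and 34.8 in developing animals, against 306, 234 and 246 in diapause animals (-2.44, limma adjusted p = 0.000138), and in RPF 25.0, 33.9 and 28.3 in developing animals, against 321, 491 and 286 in diapause animals (-3.65, limma adjusted p = 1.17e-07). All developing libraries of both species were below all of their diapause libraries.

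In C. brenneri the change of hsp-12.6 was smallest. Its mRNA had 18.5, 22.4 and 16.9 normalized reads in developing animals, against 66.2, 73.8 and 21.4 in diapause animals (-1.48, limma adjusted p = 0.0575). One diapause library was as low as the developing ones. Without it the change was -1.86 and the limma adjusted p 0.00131. Its RPF had 15.6, 13.3 and 13.4 in developing animals, against 34.2, 112 and 100.3 in diapause animals (-2.54, limma adjusted p = 0.00202), and here the groups did not overlap.

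hsp-12.3, the neighbour of hsp-12.6 in C. elegans, fell alongside it. In C. elegans mRNA it had 12.05, 17.8 and 17.4 normalized reads in developing animals, against 95.1, 166 and 168 in diapause animals, 9.06-fold lower (-3.18, limma adjusted p = 1.34e-05). In C. elegans RPF it had 6.28, 17.2 and 7.16 in developing animals, against 122, 166 and 108 in diapause animals, 12.9-fold lower (-3.69, limma adjusted p = 8.29e-06). The groups were 5.34-fold and 6.26-fold apart at their closest libraries, and the RPF change was -4.30 without developing library 2.

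In C. briggsae hsp-12.3 mRNA had 79.0, 21.2 and 52.2 normalized reads in developing animals, against 323, 378 and 168 in diapause animals (-2.51, limma adjusted p = 0.000683). Its RPF had 14.3, 44.8 and 13.8 in developing animals, against 310.1, 422 and 246 in diapause animals, 13.4-fold lower (-3.74, limma adjusted p = 8.49e-05). The developing libraries of C. briggsae differed among themselves by more than 3-fold in both assays, and still lay below the lowest diapause library. Without developing library 2 the RPF change was -4.53. In C. remanei mRNA it had 415, 249.5 and 236 in developing animals, against 1809.5, 1312 and 1416 in diapause animals (-2.33, limma adjusted p = 0.000119). In C. remanei RPF it had 131, 190.3 and 105 in developing animals, against 1358, 2083 and 1670.0 in diapause animals (-3.58, limma adjusted p = 8.12e-08). In C. remanei only 0.297% of 10088 coding sequences fell more at the RPF level.

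The change of hsp-12.3, too, was smallest in C. brenneri. Its mRNA had 299, 260.2 and 313 normalized reads in developing animals, against 907, 803 and 521 in diapause animals (-1.36, limma adjusted p = 0.00120), and its RPF had 419, 386 and 219 in developing animals, against 923, 1374 and 1164 in diapause animals (-1.76, limma adjusted p = 0.000395). The limma 95% interval of the mRNA change was -1.77 to -0.87 in C. brenneri, against -3.70 to -2.44 in C. elegans, -3.57 to -1.61 in C. briggsae and -2.88 to -1.85 in C. remanei, and that of the RPF change was -2.36 to -1.23 in C. brenneri, against -4.51 to -2.83 in C. elegans, -4.84 to -2.90 in C. briggsae and -4.05 to -3.14 in C. remanei. The species tables were normalized separately, and the difference between species was not tested. The share of all coding sequences at least 2-fold lower in developing animals was also smallest in C. brenneri, at 4.9% for mRNA and 9.09% for RPF.

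hsp-17 ran the other way, with more normalized reads of mRNA and of footprints after feeding in each species. In C. elegans mRNA it had 1093, 1533 and 1370.2 normalized reads in developing animals, against 148, 134 and 137 in diapause animals, 9.55-fold higher (3.26, limma adjusted p = 1.46e-07). In C. elegans RPF it had 985, 1007 and 927 in developing animals, against 127, 167 and 184 in diapause animals, 6.11-fold higher (2.61, limma adjusted p = 4.25e-08). The groups were 7.41-fold and 5.03-fold apart at their closest libraries. At the mRNA level 0.796% of coding sequences with a mean of at least 50 rose more than hsp-17, and at the RPF level 4.07% did.

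In C. briggsae hsp-17 mRNA had 972, 855 and 838 normalized reads in developing animals, against 85.6, 93.4 and 48.9 in diapause animals, 11.7-fold higher (3.55, limma adjusted p = 1.08e-06). Its RPF had 497, 545 and 458 in developing animals, against 62.7, 81.4 and 98.0 in diapause animals, 6.20-fold higher (2.63, limma adjusted p = 5.30e-06). This was the largest rise of the gene, in 51st place among 10954 coding sequences for mRNA. In C. remanei the mRNA had 767, 1141 and 799 in developing animals, against 184, 248 and 185 in diapause animals (2.13, limma adjusted p = 8.96e-05), and the RPF had 590.1, 676 and 568 in developing animals, against 229, 229 and 240.0 in diapause animals (1.39, limma adjusted p = 9.49e-07). In C. brenneri the mRNA had 792, 869 and 676 in developing animals, against 289, 278 and 281 in diapause animals (1.46, limma adjusted p = 6.83e-05), and the RPF had 889, 955 and 992 in developing animals, against 436, 458 and 393 in diapause animals (1.14, limma adjusted p = 2.26e-05). The developing and diapause libraries of hsp-17 overlapped in none of the 8 comparisons, a description without a background share. At the RPF level 14.9% of coding sequences with a mean of at least 50 rose more than hsp-17 in C. remanei and in C. brenneri. There it stood less far out than in C. elegans and C. briggsae (4.72%).

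hsp-43 showed small, tight falls. In C. elegans mRNA it had 387, 369 and 346 normalized reads in developing animals, against 689, 703 and 729.6 in diapause animals (-0.94, limma adjusted p = 2.81e-05). In C. elegans RPF it had 371, 391 and 352 in developing animals, against 836, 834 and 777 in diapause animals (-1.13, limma adjusted p = 2.36e-06). The spread within a state was 2.90% to 5.54% of the mean in these 4 groups, so that a 1.92-fold difference was larger than the replicate error.

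In C. briggsae hsp-43 mRNA had 361, 352 and 282 normalized reads in developing animals, against 427, 377 and 473 in diapause animals (-0.36, limma adjusted p = 0.0449). This was the weakest call among the 4 genes, with the closest libraries 1.04-fold apart. It was lost without developing library 2 (-0.41), developing library 3 (-0.26), diapause library 1 (-0.36) or diapause library 3 (-0.28), with limma adjusted p-values up to 0.155. The RPF of the same gene had 211, 184 and 205 in developing animals, against 453, 451 and 577 in diapause animals (-1.30, limma adjusted p = 7.97e-05), a clear separation. In C. remanei the mRNA had 321, 269.7 and 264 in developing animals, against 499.5, 494 and 579 in diapause animals (-0.88, limma adjusted p = 0.000990), and the RPF had 179, 205 and 217 in developing animals, against 610.1, 674 and 646 in diapause animals, 3.21-fold lower (-1.68, limma adjusted p = 2.87e-07). In C. brenneri the mRNA had 788, 574 and 656 in developing animals, against 1058, 967 and 950.3 in diapause animals (-0.56, limma adjusted p = 0.0104), and the RPF had 939.7, 931 and 772 in developing animals, against 1513, 1525 and 1509 in diapause animals (-0.78, limma adjusted p = 0.000221). The groups of both species were apart in both assays.

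Counted by size, 8 of 16 mRNA values and 11 of 16 RPF values were at least 2-fold lower in developing animals, and 4 of 16 were at least 2-fold higher in each assay. All hsp-12.3 and hsp-12.6 values were among those lower, with 3 of the RPF values of hsp-43, and all hsp-17 values among those higher. Of all coding sequences with a mean of at least 50, the mRNA tables held 4.9% that were at least 2-fold lower in C. brenneri, 7.23% in C. remanei, 12.8% in C. briggsae and 9.65% in C. elegans, and 8.11%, 12.1%, 14.1% and 13.6% that were at least 2-fold higher, in that order of species. The RPF tables held 9.09%, 13.4%, 16.9% and 15.1% that were lower and 17.9%, 22.4%, 26.1% and 19.6% that were higher. In C. brenneri hsp-12.6 is counted among the 16 values although its mean was under 50 in both assays. In C. elegans hsp-12.3 and hsp-12.6 reached that mean through diapause alone. The limma standard errors of the changes ran from 0.20 to 0.44 for hsp-12.3, from 0.22 to 0.60 for hsp-12.6, from 0.09 to 0.22 for hsp-17 and from 0.10 to 0.14 for hsp-43, on the log2 scale.

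**Figure D2:**
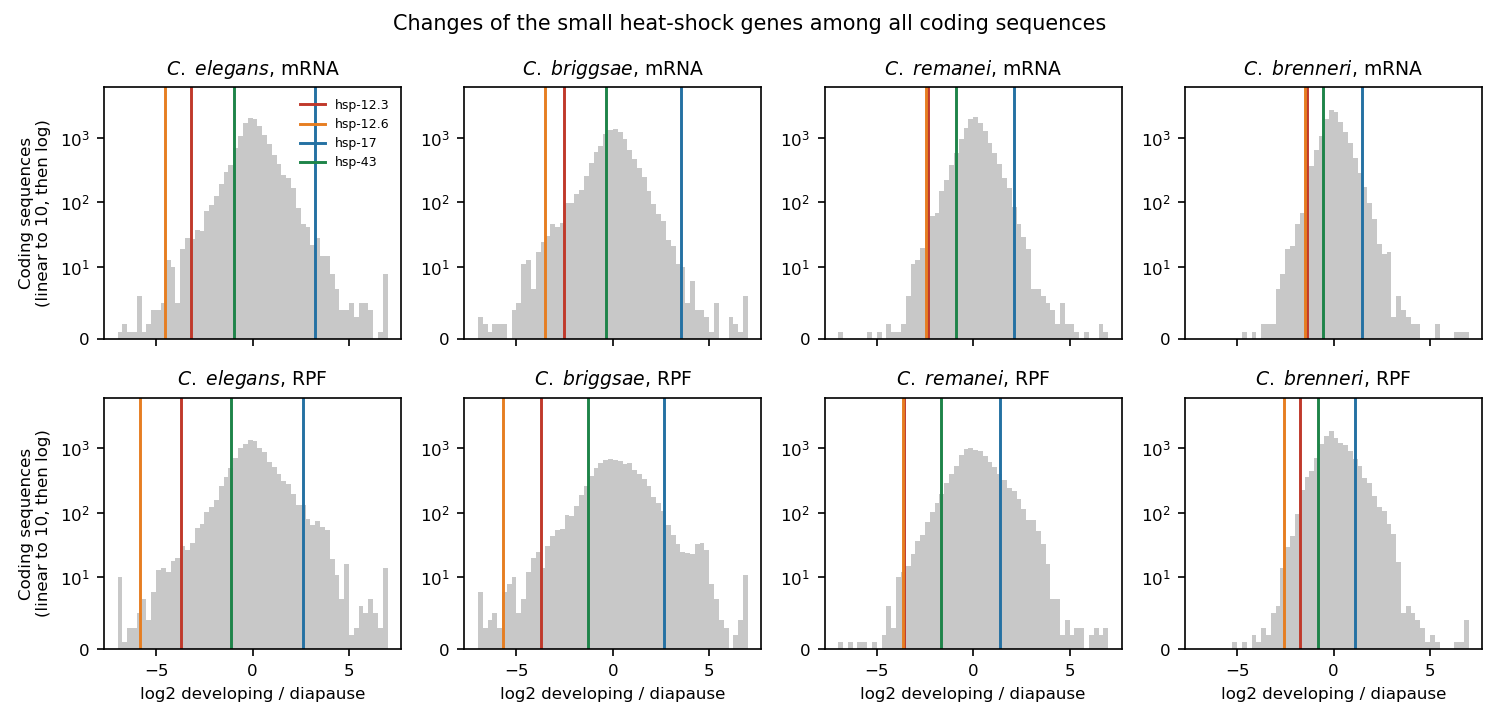
Number of coding sequences with a mean of at least 50 normalized reads (grey bars, axis linear to 10 and logarithmic above) by log2 change, developing over diapause, in the mRNA (top) and RPF (bottom) tables of 4 species; changes beyond 7 are in the end bars. Coloured lines mark hsp-12.3, hsp-12.6, hsp-17 and hsp-43. The lines of hsp-12.3 and hsp-12.6 lie in the lower tail of each table, where at most 2.34% of coding sequences fell more, and hsp-43 lies nearer the centre. In C. brenneri hsp-12.6 had a mean under 50 in both assays and is not in the bars. In C. elegans hsp-12.3 and hsp-12.6 reached that mean through diapause alone.

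Both assays together gave the change in translation efficiency (TE), the ratio of RPF to mRNA, whose change is the RPF log2 change less that of mRNA. TE shares its mRNA values with the mRNA change and is not a separate measurement. All 16 TE changes were negative, also those of hsp-17, whose mRNA rose. For hsp-12.3, hsp-12.6 and hsp-43 the ratio of footprints was lower than that of mRNA, and for hsp-17 the footprints were raised by a smaller factor than the mRNA. Among coding sequences with a mean of at least 50 in both assays, the TE change was negative for 47.9% in C. brenneri, 58.2% in C. remanei, 55.0% in C. briggsae and 55.2% in C. elegans. In C. brenneri hsp-12.6 was below that mean. The interaction of state and assay in limma, fitted over the 12 libraries of a species, called 6 of the 16 changes. The same fit called 0.487% of the coding sequences tested lower in C. brenneri, 7.29% in C. remanei, 7.21% in C. briggsae and 5.74% in C. elegans, and 6.18%, 8.36%, 12.5% and 8.08% higher in the same order of species. In another run the developing values of each table were scaled by a single factor, so that both states had the same table sum. After this scaling 5 were called, of which only hsp-43 in C. briggsae was among the 6.

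**Figure D3:**
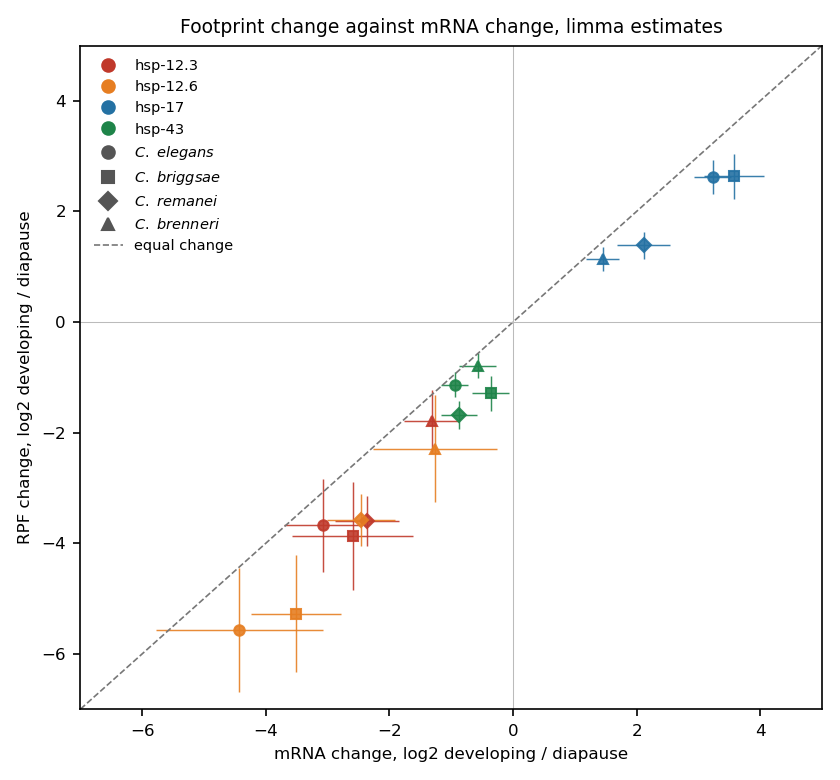
RPF change against mRNA change, both as limma estimates of log2 developing over diapause, for 4 genes (colours) in 4 species (symbols); bars are 95% intervals and the dashed line marks equal change. Every point lies below the line, for the genes that fell and for hsp-17, which rose.

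All 4 genes were called in C. remanei. There the TE change was -1.25 for hsp-12.3 (limma adjusted p = 0.0271), -1.21 for hsp-12.6 (0.0425), -0.74 for hsp-17 (0.0386) and -0.80 for hsp-43 (limma adjusted p = 0.00560). In C. briggsae it was -0.94 for hsp-43 (limma adjusted p = 0.00510) and -0.92 for hsp-17 (0.0490), both called, and -2.15 for hsp-12.6 (0.0581) and -1.23 for hsp-12.3 (0.230), neither called. In C. elegans none was called, with -0.51 for hsp-12.3, -1.34 for hsp-12.6, -0.65 for hsp-17 (limma adjusted p = 0.0591) and -0.19 for hsp-43. In C. brenneri none was called, with -0.40, -1.06, -0.32 and -0.22 in the same order and adjusted p-values from 0.262 to 0.534. For hsp-12.6 in C. elegans the 95% interval of the limma estimate ran from -3.03 to 0.75, and thus held changes in either direction. Its TE change was -0.22 without developing mRNA library 3 and -2.18 without developing RPF library 1. That of hsp-12.3 was -1.12 in C. elegans and -2.02 in C. briggsae without developing RPF library 2 of the species, neither called. Only the hsp-43 calls, in C. briggsae and C. remanei, held without any single library. Of the 12 libraries of the species, leaving out 10 ended the call of hsp-17 in C. briggsae (all but diapause mRNA library 2 and diapause RPF library 1), with TE changes from -1.01 to -0.68. In C. remanei leaving out 8 ended that of hsp-17 (all but developing mRNA libraries 1 and 3, diapause mRNA library 2 and developing RPF library 2; -0.75 to -0.53). There 8 also ended that of hsp-12.6 (all but developing mRNA library 3, diapause mRNA library 1, developing RPF library 2 and diapause RPF library 3; -1.30 to -0.94). For hsp-12.3 in C. remanei 6 did (developing mRNA library 1, diapause mRNA libraries 2 and 3, developing RPF libraries 1 and 3, diapause RPF library 2; -1.20 to -0.94).

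Relative to other coding sequences, footprints per mRNA were high in diapause for each gene in each species. In developing C. elegans the ratio of RPF to mRNA means was 0.649 for hsp-12.3, 0.634 for hsp-12.6, 0.730 for hsp-17 and 1.01 for hsp-43, where the median coding sequence stood at 0.623. In diapause the same genes stood at 0.926, 1.60, 1.14 and 1.15, with the median coding sequence at 0.616. Ratios are set by the separate scaling of the RPF and mRNA tables, so only a gene's place among the coding sequences of its species is compared further. These places and the median are taken over coding sequences with a mean of at least 50 in both assays. In C. brenneri hsp-12.6 was below that mean and is only placed against them. In developing animals 12 of 16 ratios were above the median coding sequence, between the 10.9th percentile (hsp-12.6 in C. briggsae) and the 87.9th (hsp-43 in C. elegans), with a median at the 60.2nd. In diapause all 16 were above it, between the 77.0th percentile (hsp-12.3 in C. elegans) and the 98.1st (hsp-12.6 in C. elegans), with a median at the 90.7th. In each species, then, the 4 genes stood higher among these coding sequences in diapause than after feeding. The difference was smallest for hsp-43 in C. elegans, at the 87.9th percentile in developing animals and the 89.4th in diapause animals. No test was made of these places.

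**Figure D4:**
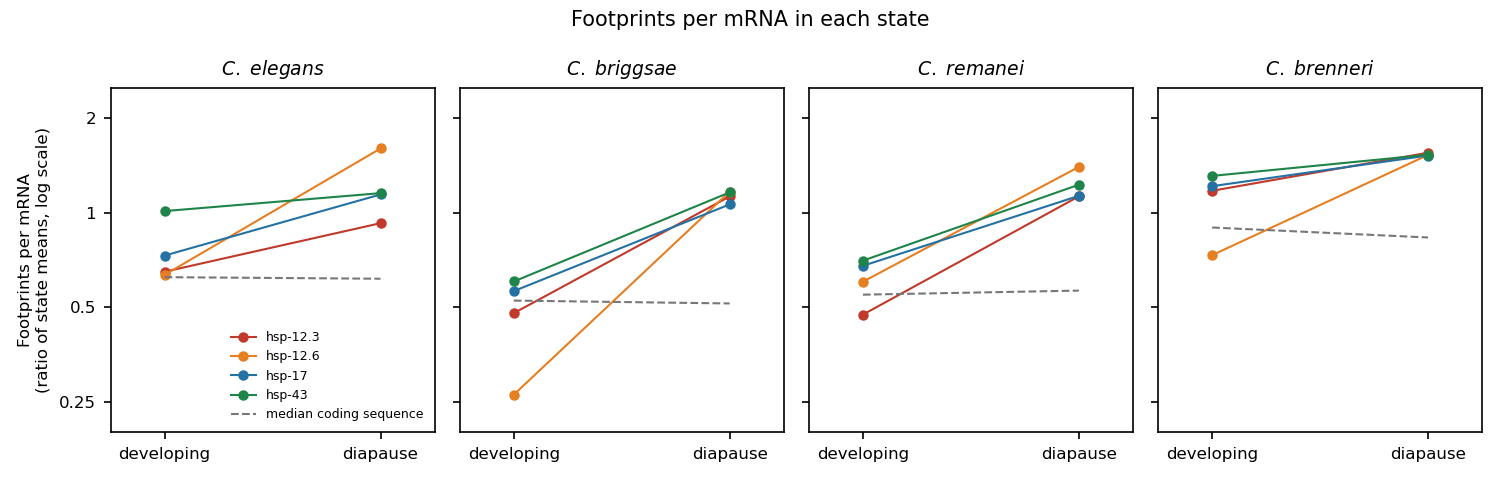
Ratio of mean RPF to mean mRNA normalized reads (log axis) in developing and diapause animals of 4 species, for 4 genes (coloured lines) and for the median coding sequence (dashed). The median is over coding sequences with a mean of at least 50 in both assays. All lines of the genes are higher in diapause, where they lie between 0.926 and 1.60 in C. elegans, and the dashed line is nearly level.

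In diapause the replicates of hsp-12.6 in 7 of 8 groups, and those of hsp-12.3 in 8 of 8, varied more than the median coding sequence at their level. The coefficient of variation (CV) of hsp-12.6 over the 3 diapause libraries was 52.4% for C. elegans mRNA and 47.0% for RPF, where coding sequences with a mean within 2-fold of it had a median CV of 11.3% and 10.3%. It stood above the 95th percentile of such sequences in 5 of its 8 diapause groups, hsp-12.3 in 1 of 8, and hsp-17 and hsp-43 in none. In developing animals hsp-12.3 stood above the median of such sequences in 6 of 8 groups and above their 95th percentile in 3, and hsp-12.6 in 3 of 8 and in none. The CV in diapause ran from 8.85% to 52.7% for hsp-12.6 over its 8 groups, and from 0.535% to 14.6% for hsp-43. In C. elegans the low diapause library of hsp-12.6 was number 1 for mRNA (57.4 normalized reads) and number 3 for RPF (107), and hsp-12.3 was lowest in the same libraries (95.1 and 108). Over all species the lowest diapause library was the same for both genes in 5 of 8 groups, and it differed in C. briggsae mRNA and RPF and in C. remanei RPF. The other coding sequences at least 4-fold lower in developing animals had a median of 0.959 of their diapause mean in that mRNA library (358 sequences) and 0.995 in that RPF library (554 sequences), in each case the lowest median of the 3 libraries. The highest median was 1.07 in an mRNA library and 1.0003 in an RPF library. In C. brenneri the low mRNA library, number 3, was also low for such sequences, with a median of 0.727 over 63 of them. In the low RPF library of C. brenneri, number 1, it was 0.779 over 104. C. remanei mRNA differed, with both genes lowest in library 2, where the median was 0.990 over 149 sequences. There the lowest median was 0.873, in library 3. The part of those libraries in the hsp-12.6 values was not tested.

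As a share of all normalized reads of a table, in ppm and not divided by length, the 4 genes together took 116 ppm of C. elegans mRNA in developing animals, against 84.1 ppm in diapause animals. In C. elegans RPF they took 144 ppm in developing animals, against 192 ppm in diapause animals. The mRNA sum was also higher in developing animals of C. briggsae (125 ppm, against 93.9 ppm in diapause animals), and lower in developing animals of C. remanei (119 ppm, against 244 ppm in diapause animals) and C. brenneri (112 ppm, against 149 ppm in diapause animals). The RPF sum was lower in developing animals of each species, at 82.8 ppm, against 111 ppm in diapause animals, in C. briggsae, at 49.4 ppm, against 133 ppm in diapause animals, in C. remanei, and at 153 ppm, against 320.1 ppm in diapause animals, in C. brenneri. In C. elegans hsp-17 alone took 89.7 ppm of mRNA in developing animals, against 10.3 ppm in diapause animals, while hsp-12.3 and hsp-12.6 together took 1.49 ppm in developing animals, against 21.3 ppm in diapause animals. The RPF share of hsp-12.3 and hsp-12.6 together in C. remanei was 8.61 ppm in developing animals, against 93.5 ppm in diapause animals. In C. brenneri that share was 24.9 ppm in developing animals, against 124 ppm in diapause animals.

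By rank of reads, hsp-17 mRNA of C. elegans stood above 92.6% of coding sequences in developing animals and above 54.5% in diapause animals. In RPF it stood above 92.0% in developing animals and above 65.3% in diapause animals. hsp-12.6 RPF of C. elegans stood above 22.4% of coding sequences in developing animals and above 73.3% in diapause animals. In C. remanei hsp-12.3 reached the highest place of the 4 genes, with RPF above 98.4% of coding sequences in diapause animals, and above 76.6% in developing animals.

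Among 18 genes of the study's list with values in all 8 tables, the nearest to hsp-12.3 by mean absolute difference in log2 change were atg-18 (0.66), mfb-1 (0.87) and hsp-12.6 (0.94). The nearest to hsp-12.6 were hsp-12.3 (0.94), atg-18 (1.60) and mfb-1 (1.81), so that its neighbour came closest. The nearest to hsp-17 were hsp-3 (0.74), hsp-1 (0.77) and hsp-6 (1.03), all chaperones of the HSP70 family. The nearest to hsp-43 were unc-51 (0.27), lite-1 (0.28) and atg-3 (0.28). The list was chosen on these libraries, and no other coding sequences were compared. Which genes come nearest therefore depends on what the list holds.

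The other genes that the study lists as heat shock proteins moved in the direction of hsp-17 in all but 1 mRNA value. These are hsp-1, a cytosolic HSP70 chaperone, hsp-3 and hsp-4, HSP70 chaperones of the endoplasmic reticulum, and hsp-6 and hsp-60, the HSP70 and HSP60 chaperones of mitochondria. The HSP90 chaperone gene daf-21, which the study lists under another heading, is not counted among them. Of their 19 values per assay, 18 mRNA values and all 19 RPF values were higher in developing animals, with medians of 1.59 and 2.39 on the log2 scale. limma could test 15 mRNA and 13 RPF values, those whose reads were recovered. It called 14 higher and 1 lower for mRNA, and 13 higher for RPF. The lower one was hsp-60 in C. briggsae (-0.55). These heat shock genes come from a list that the study chose on these libraries. Their shared direction and calls were therefore largely set by the choice and are not independent evidence. Their TE changes were positive for hsp-1, hsp-3, hsp-6 and hsp-60 in each species (16 values), and negative, like those of hsp-17, for hsp-4 in the 3 species with a value (-0.12 to -0.07). Of 12 TE changes tested, limma called 6, all higher, those of hsp-6 in 3 species and of hsp-60 in 3.

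Another small heat-shock gene, sip-1, whose protein is known from embryos of C. elegans, had a different pattern. It and the pair hsp-16.48 and hsp-16.49 were taken from the study's list of C. elegans genes whose mRNA and RPF changes strongly disagree. That list was chosen on these libraries, so opposed mRNA and RPF changes were set by the choice. The mRNA of sip-1 was lower in developing animals, with 136 normalized reads against 293 in diapause animals (-1.11, limma adjusted p = 0.00242). Its RPF was higher, with 142 in developing animals against 44.4 in diapause animals (1.68, limma adjusted p = 0.000111), and its TE change was 2.78 (limma adjusted p = 7.08e-05), opposite to the 4 genes. The heat-inducible pair hsp-16.48 and hsp-16.49, which share 1 identifier, was called in neither assay. It stood at 0.57 for mRNA (limma adjusted p = 0.141) and -0.32 for RPF (limma adjusted p = 0.350). Its TE change was -0.89 (limma adjusted p = 0.223), not called and of the same sign as those of the 4 genes. The values of this pair are uncertain because reads that both copies share were removed. In C. elegans daf-16 had a change of -0.75 for mRNA (limma adjusted p = 0.000379) and -1.12 for RPF (limma adjusted p = 3.03e-06). sod-3, a superoxide dismutase gene that is a target of DAF-16 like hsp-12.6, had -4.83 for mRNA (limma adjusted p = 2.02e-05) and -4.85 for RPF (limma adjusted p = 8.49e-07). In C. elegans hsp-12.6 had -4.52 for mRNA and -5.86 for RPF, so the 2 genes were closer in mRNA than in RPF. Both daf-16 and sod-3 come from the list of the study that holds the 4 genes. Any part of DAF-16 in these changes was not tested.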

How the data were processed

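Reads were mapped with Bowtie 0.12.7 to the WS230 genomes, and the authors summed them per coding sequence with flanks after removal of reads with several genomic mappings. The deposited signal columns hold the mean of 3 libraries per state after the authors scaled reads with DESeq size factors, 1 table for each species and assay. The deposited table also has a ratio of variances, used only as a check. Deposited fold changes and p-values of the authors' comparisons were not used.

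Each mean is a sum of 3 whole read numbers times 3 fixed steps. The steps were read from the lowest values, and the reads of each library were then solved for exactly. This gave a single solution for 99.2% to 99.96% of the means of a column, over 16 columns with 392620 means in all. Means above 20000 were not tried, some means had several solutions and were not used for single libraries, and 1 had no solution. The squared CV of the recovered reads followed the deposited variance ratio of its own state (Spearman's rho 0.811 to 0.939) and not that of the other (at most 0.314). Changes were tested with limma 3.58.1 (R 4.3.3; mean-variance trend, mean of at least 10, pseudocount 1), TE as an interaction. This test was chosen after the tables were seen to hold means, in place of the planned count test, and was tested on simulated data. The simulation gave all coding sequences the same replicate spread beyond counting error, and put changes only into those with a mean of at least 50. It thus does not cover the wide spread and few reads of hsp-12.6. The labels number the replicates. The study describes them as biological, with the starved and fed animals of each taken from the same batch.

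Rows of other species were found as the only rows whose mRNA and RPF ratios equal those listed by the study. The genes named are the 4 members, the other heat-shock genes of 2 lists of the study, the 3 genes of its list nearest each member over 8 changes, and daf-16 and sod-3. Members and lists were chosen with earlier results of these data known. Promoter motifs were not analysed here.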

Additional observations from a re-analysis of the deposited data

How the results depend on the processing

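No change or TE change turned its sign under any alternative run. Of 32 mRNA and RPF changes, 31 were called with a pseudocount of 1 or 5 and with each table centred on its median change, 32 after scaling to the table sum, and 30 with no filter on low values or without the mean-variance trend of limma. The changed calls were hsp-12.6 mRNA in C. brenneri (-1.66, called after scaling to the table sum, and -1.86 to -1.19 with single libraries left out) and hsp-43 mRNA in C. briggsae (-0.36, not called without a filter or without the trend, and -0.44 to -0.26 with single libraries left out). Of 16 TE changes, 6 were called, 7 after centring, where hsp-12.6 in C. briggsae was added (-2.24), and 5 after scaling to the table sum. That scaling ended the calls in C. remanei of hsp-12.3 (-0.76), hsp-12.6 (-0.73), hsp-17 (-0.25) and hsp-43 (-0.32) and in C. briggsae of hsp-17 (-0.74), and it added hsp-17 (-0.95) and hsp-43 (-0.49) in C. elegans and hsp-17 (-0.66) and hsp-43 (-0.56) in C. brenneri. Leaving out single libraries gave TE changes of hsp-12.3 from -1.52 to -0.94, of hsp-12.6 from -1.40 to -0.94 and of hsp-17 from -0.90 to -0.53 in C. remanei. In C. briggsae it gave -2.68 to -1.62 for hsp-12.6 and -1.09 to -0.68 for hsp-17, and in C. elegans -0.79 to -0.53 for hsp-17. Of changes that were not called, the ranges were -2.18 to -0.22 for hsp-12.6 in C. elegans, -1.12 to -0.26 for hsp-12.3 in C. elegans and -2.02 to -0.76 for hsp-12.3 in C. briggsae. Such a fit has fewer samples. The median change that centring removed was over 0.1 only for RPF in C. briggsae (0.14) and C. remanei (0.11), and the table sums differed by -0.16 to 0.52 on the log2 scale. With table sums the share of limma calls that were higher in developing animals was 40.2% in place of 51.0% for C. elegans mRNA, 29.4% in place of 50.6% for C. elegans RPF, 30.2% in place of 60.4% for C. remanei mRNA, 37.9% in place of 58.7% for C. brenneri mRNA and 24.1% in place of 54.2% for C. brenneri RPF. It moved by less than 10 points elsewhere, to 46.0% in place of 51.4% for C. briggsae mRNA, 58.0% in place of 53.2% for C. briggsae RPF and 61.2% in place of 52.5% for C. remanei RPF. A 4-fold threshold left 7 of the 11 RPF values that were lower and 2 of the 4 that were higher. No paired analysis was possible because the recovered libraries carry no batch number. Count fits with DESeq2 or edgeR were not run on the recovered reads, so whether they would give the same calls is not known. Depth limits hsp-12.6 after feeding, with 7 to 15 reads behind a mean in 3 groups.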
